A study of Mus musculus with 12 samples.

Results

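To follow the AMPA-type glutamate receptor in cerebellar astrocytes during postnatal development, its 4 pore subunits and 5 of its TARPs (transmembrane AMPA receptor regulatory proteins) were taken by gene symbol from RNA sequencing of cells sorted from the cerebellum of Aldh1l1-GFP mice. The members were Gria1, Gria2, Gria3 and Gria4 for the pore, and Cacng2, Cacng4, Cacng8, Cacng5 and Cacng7 for the TARPs. All 9 were found among the 24421 genes of the deposited table and all 9 passed the filter on low values, which 15464 genes passed. The 4 groups were ages, P1 (postnatal day 1), P7, P14 and P28, with 3 libraries each, all of the Aldh1l1-GFP genotype and with no treatment in the labels. Per the paper's methods, the mice were on a C57/BL6J background and of both sexes. In such a reporter line GFP marks cells that use the regulatory sequence of Aldh1l1, an astrocyte gene, and the labels do not part Bergmann glia from other astrocytes. The values are normalized counts, that is, reads per gene divided by one size factor per library by the authors. Library depth ranged from 6399499 to 14733985 reads on genes. The lowest was P7 replicate 2, which also had the largest summed level of endothelial markers (5541 normalized counts, against 545 to 3083 in the other 11 libraries).

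AMPA receptors are cation channels built from 4 pore subunits, which are opened by glutamate and carry most fast excitatory transmission in the brain. Whether a channel passes calcium depends on Gria2. Its RNA is edited by the adenosine deaminase Adarb1 so that a glutamine codon in the pore loop is read as arginine, and channels with the edited subunit pass little calcium. TARPs bind the pore subunits and set their surface delivery, gating and pharmacology, and they fall into type I (here Cacng2, Cacng4 and Cacng8) and type II (Cacng5 and Cacng7). Bergmann glia, the astrocytes that ensheath Purkinje cell synapses, are known for calcium-permeable receptors made of Gria1 and Gria4 without Gria2.

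The stretch around the edited codon is shown for the 4 pore subunits, because the comparisons below turn on how much of the mRNA came from the one edited subunit. Each run holds 56 bases of coding sequence from GENCODE M21 on GRCm38, 5′ to 3′ along the gene's strand, with the glutamine codon in capitals and the last base of the exon at the end.
Gria1, chr11:57243064-57243119, plus strand, exon 11, residue 600: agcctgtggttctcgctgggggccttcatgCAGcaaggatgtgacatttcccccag
Gria2, chr3:80706888-80706943, minus strand, exon 11, residue 607: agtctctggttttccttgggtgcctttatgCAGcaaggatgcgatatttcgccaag
Gria3, chrX:41610235-41610290, plus strand, exon 11, residue 612: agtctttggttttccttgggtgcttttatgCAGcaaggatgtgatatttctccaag
Gria4, chr9:4464114-4464169, minus strand, exon 12, residue 608: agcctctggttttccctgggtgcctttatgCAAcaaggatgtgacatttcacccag
All 4 genes encode glutamine at this position. Gria2 differed from Gria3 at 4 of the 56 bases, from Gria4 at 7 and from Gria1 at 11, and Gria1 differed from Gria4 at 7. Gene-level counts do not tell edited from unedited RNA, so editing itself was not measured.

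The sorted cells carried reads of all 10 listed astrocyte markers at every age. The summed level of these markers was 53806 to 68629 normalized counts at P1, 27413 to 50682 at P7, 146266 to 182765 by P14 and 346478 to 404074 by P28. Markers of other cells were present and moved with age. The sum of 9 granule neuron markers was 952 to 2336 at P1, with Gabra6 at 0 in all 3 libraries, 7280 to 9182 at P7, 27712 to 54846 by P14 and 17718 to 22742 by P28. The sum of 7 markers of oligodendrocyte precursors was 8277 to 12603 at P1, 4338 to 5095 at P7, 7930 to 8928 by P14 and 2793 to 3179 by P28. That of 7 oligodendrocyte markers was 672 to 1626 at P1, 20169 to 31665 at P7, 329017 to 380963 by P14 and 95693 to 136095 by P28. At P14 it was above the astrocyte sum in every library. Of these 7 markers, 6 were called lower from P14 to P28 (limma). The sum of 7 markers of GABAergic interneurons was highest at P7 (3348 to 6553, against 271 to 1868 at the other ages), and that of 6 Purkinje cell markers, mostly Car8 and Calb1, was 228 to 825 in the 12 libraries. Within the latter list, Pcp2, Pvalb and Gng13 were called higher from P7 to P14 and from P1 to P28 (limma), Pcp2 from 8.49 ± 3.68 normalized counts (SD, n = 3) at P7 to 126 ± 73.0 by P14. Car8 went the other way and was called lower from P1 to P7 and from P1 to P28. Markers of Bergmann glia, led by Ptprz1 and Fabp7, summed to 70698 to 89665 at P1, 16125 to 35396 at P7, 40411 to 54217 by P14 and 89046 to 108541 by P28. Of these 8 markers, 4 were called lower (Ptprz1, Fabp7, Etv5 and Timp4) and 0 higher in the step to P7. In that to P14, 6 were called higher and Fabp7 lower, and in the last one 6 were higher and 0 lower. In such sorted bulk samples, fewer cells of a type and less RNA per cell cannot be told apart.

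The pore subunits diverged with age. Gria1 and Gria4, the subunits named for Bergmann glia, rose in each of the 3 steps, including the first, in which 4 of 8 Bergmann glia markers fell, while Gria2 fell from P14 to P28 and Gria3 peaked at P7. In normalized counts, Gria1 was at 1054, 326 and 1041 in the P1 libraries (replicates 1 to 3), 2625, 1540 and 2622 at P7, 10916, 13659 and 10902 by P14 and 34958, 33812 and 44628 by P28. Every library lay above all libraries of the ages before it. Gria1 rose by a log2 fold change of 1.63 ± 0.36 (SE) from P1 to P7 (limma, adjusted p = 0.0110), 2.42 ± 0.36 from P7 to P14 (adjusted p = 0.000227) and 1.67 ± 0.36 from P14 to P28 (adjusted p = 0.00768), a net rise of 52.8-fold (5.72, adjusted p = 4.21e-08). The first of these steps was not called without P7 replicate 3 (adjusted p = 0.0548), and P1 replicate 2 was the lowest P1 library for Gria1, Gria4 and Cacng5.

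Gria4 followed the same course at a steadier spread. Its values were 1340, 890 and 1843 normalized counts at P1, 3468, 3038 and 3759 at P7, 13607, 18464 and 14386 by P14 and 41444, 31901 and 40824 by P28, with no overlap between any 2 ages. It rose by 1.39 ± 0.22 (SE, log2), 2.17 ± 0.22 and 1.30 ± 0.22 in the 3 steps (limma, adjusted p = 0.00158, 1.09e-05 and 0.00237), which made 29.0-fold from P1 to P28 (4.86, adjusted p = 2.33e-09). These calls held in all alternatives run. Of 9 granule neuron markers, 8 and 7 were called higher in the first 2 steps as well (limma), and 2 were lower in the last. The part of other cells in the rises of Gria1 and Gria4 was not tested.

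Gria2, the edited subunit, had 1841, 1760 and 2578 normalized counts at P1, 2837, 3521 and 3229 at P7, 3259, 2553 and 4252 by P14 and 1273, 915 and 1152 by P28. The P28 libraries lay below all 9 others, and those of P7 and P14 overlapped. Its fall from P14 to P28 was 1.57 ± 0.21 on the log2 scale (limma, adjusted p = 0.000554), to 0.336 of the P14 level, and over the whole period it fell by 0.88 (adjusted p = 0.00523). The difference of 0.65 from P1 to P7 was not called (adjusted p = 0.0821), though all P7 libraries lay above those of P1. It was called with only these ages fitted (0.0318) and without P1 replicate 3 (0.0411). From P7 to P14 the difference of 0.04 was not called (adjusted p = 0.918), whereas P14 was above P1 by 0.69 (adjusted p = 0.0306). The libraries of P1 and P14 overlapped, and that call was lost with library totals (adjusted p = 0.124) and without any one of 4 libraries (up to 0.139, without P14 replicate 3). Granule neurons and oligodendrocyte precursors also use Gria2, and both marker sums fell from P14 to P28, as given above. Their part in the fall of Gria2 was not tested.

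Gria3, on the X chromosome, had the lowest mean level per kilobase of exon of the 4 subunits at each age. Its values were 597, 649 and 943 normalized counts at P1, 1355, 1184 and 1811 at P7, 435, 266 and 501 by P14 and 262, 326 and 331 by P28. The P7 libraries lay above all 9 others, and those of P14 and P28 overlapped. Gria3 rose by 1.00 ± 0.27 (SE, log2) from P1 to P7 (limma, adjusted p = 0.0392), a call that was lost without any one of 6 libraries (adjusted p up to 0.196, without P7 replicate 3), and fell by 1.88 ± 0.27 from P7 to P14 (adjusted p = 0.000208). From P14 to P28 the difference was -0.34 (adjusted p = 0.430), and the net fall from P1 to P28 was 1.23 (adjusted p = 0.00325). At P7 the sum of GABAergic interneuron markers was also at its highest, as was Mki67, a gene of dividing cells of any type (9915 to 13819 normalized counts, against 9.44 to 8296 at the other ages). The sum of 4 other markers of granule neuron precursors was 2548 to 4200 at P7 and 2092 to 4032 by P14, which overlapped. Their part in this peak was not tested.

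**Figure D1:**
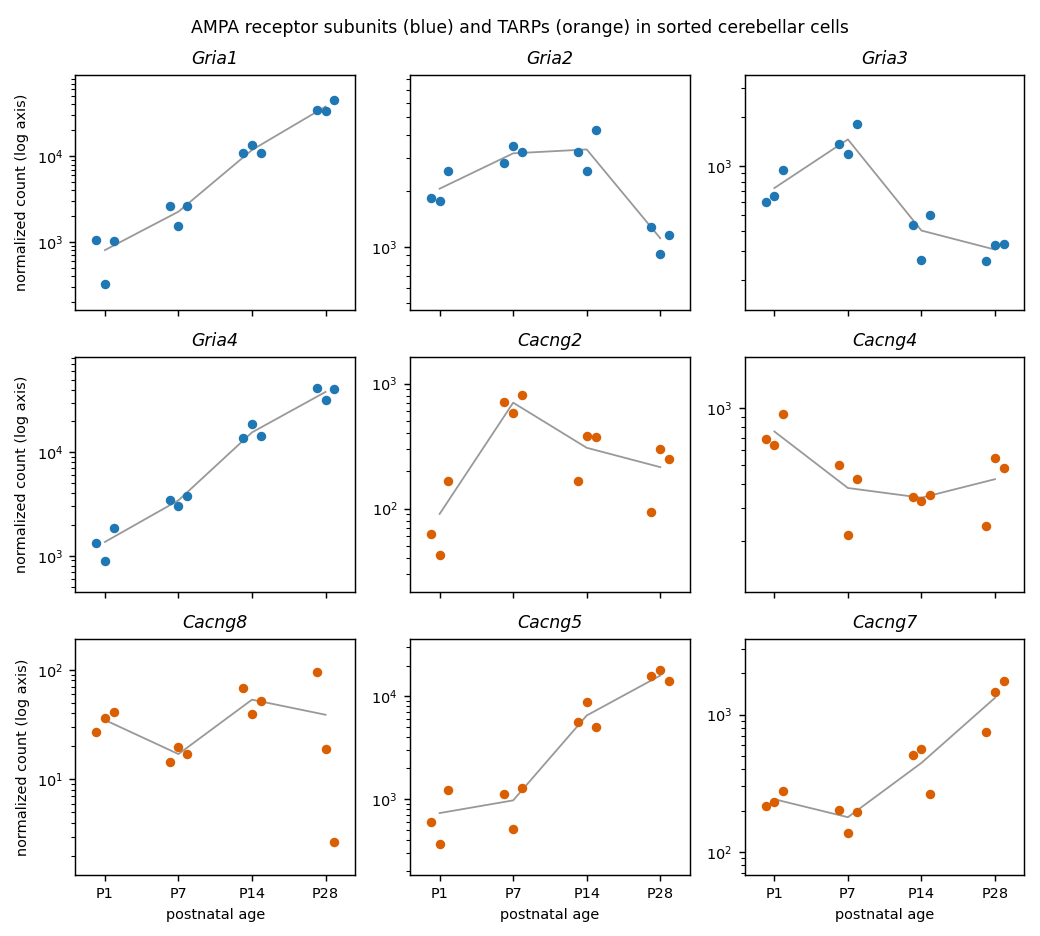
Normalized count of each AMPA receptor subunit (blue) and TARP (orange) in each of the 12 libraries, by postnatal age (P1, P7, P14, P28), on log axes that differ between panels; points are libraries and grey lines join the means of each age. Gria1, Gria4 and Cacng5 climb to between 14251 and 44628 at P28, while the 3 P28 libraries of Gria2 sit below all others at 915 to 1273.

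To set levels of different genes side by side, counts were divided by the length of each gene's merged exons in GENCODE M21. Reads had been counted on the UCSC annotation, so the length may include exons whose reads were not counted. Per kilobase of exon, Gria4 was the most abundant subunit at P1 (215 ± 75.7 normalized counts per kb, SD, n = 3), followed by Gria1 (134 ± 69.0), Gria2 (132 ± 29.0) and Gria3 (74.0 ± 18.9). At P28, Gria1 (6255 ± 983) and Gria4 (6036 ± 847) were both far above Gria2 (71.6 ± 11.7) and Gria3 (31 ± 3.92). As a share of the summed level per kb of the 4 subunits, Gria2 made up 24.7% ± 4.93 (SD, n = 3) at P1, 16.5% ± 3.83 at P7, 4.74% ± 1.59 by P14 and 0.578% ± 0.068 by P28. The lowest P1 library held 20.9% and the highest P28 library 0.657%. Gria3 went from 13.8% ± 3.50 to 0.254% ± 0.049, Gria1 from 23.0% ± 8.23 to 50.4% ± 3.52 and Gria4 from 38.5% ± 1.52 to 48.7% ± 3.49. Gria2 has long annotated exons outside its coding part, so its share depends on the length used. With coding length alone it was 42.8%, 31.7%, 11.2% and 1.48% at the 4 ages, and the order of the ages was the same. The order of the subunits was not, since at P1 Gria2 then led, with Gria4 at 26.7%. With the length of the longest coding transcript, Gria1 (19.0%) and not Gria3 (19.6%) was the lowest at P1.

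**Figure D2:**
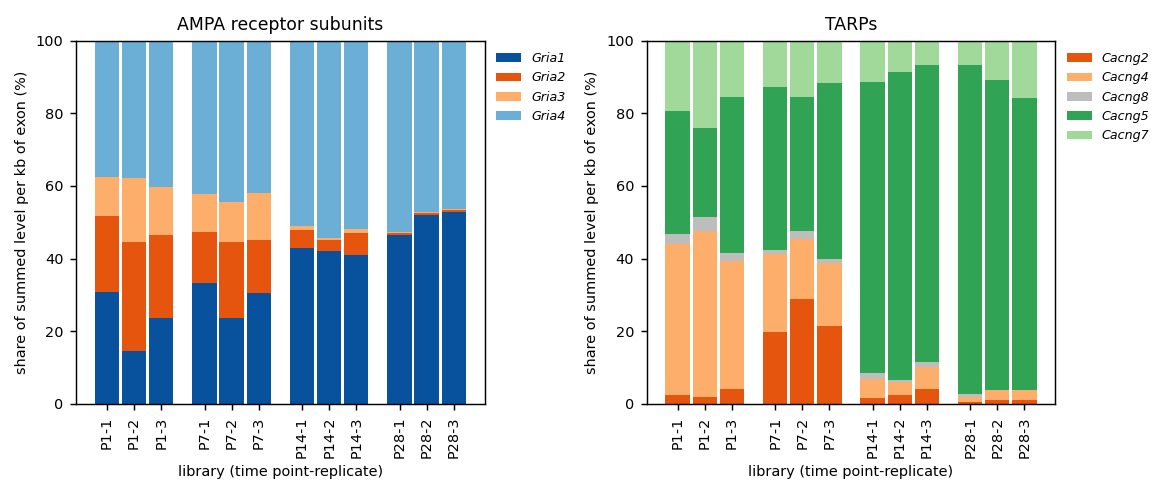
Share (%) of each subunit in the summed level per kb of exon of the 4 pore subunits (left) and of the 5 TARPs (right), 1 stacked bar per library, labelled by age and replicate. Gria2 and Gria3 shrink to under 1% each in all 3 P28 libraries, and Cacng5 grows to between 80.4% and 90.5% of the TARPs.

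The balance between subunits was then tested within libraries, where size factors cancel. The mixture of cells in a library does not cancel, and its part in the ratios was not tested. The log2 ratio of Gria2 to Gria4 counts was 0.64 ± 0.30 (SD, n = 3) at P1, -0.10 ± 0.27 at P7, -2.22 ± 0.57 by P14 and -5.10 ± 0.065 by P28, and it differed between the ages (exact permutation test of F over 369600 assignments, two-sided, p = 6.49e-05, the smallest these numbers allow, and 0.000195 adjusted over 3 ratios). The ratio of Gria2 to Gria1 ran from 1.51 ± 0.83 through 0.53 ± 0.58 and -1.84 ± 0.54 to -5.09 ± 0.27 (exact permutation p = 0.00013, adjusted 0.000195). These ratios compare counts, not levels per length, so their change with age can be read but not their sign. In the 3 libraries of P28, Gria2 to Gria4 lay within -5.15 to -5.02. The ratio of Gria1 to Gria4 moved much less, from -0.87 ± 0.55 at P1 to -0.63 ± 0.31, -0.38 ± 0.060 and -0.01 ± 0.20 (exact permutation p = 0.0401, adjusted 0.0401). That call was lost without any one of 9 libraries (adjusted p up to 0.130, without P28 replicate 3).

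**Figure D3:**
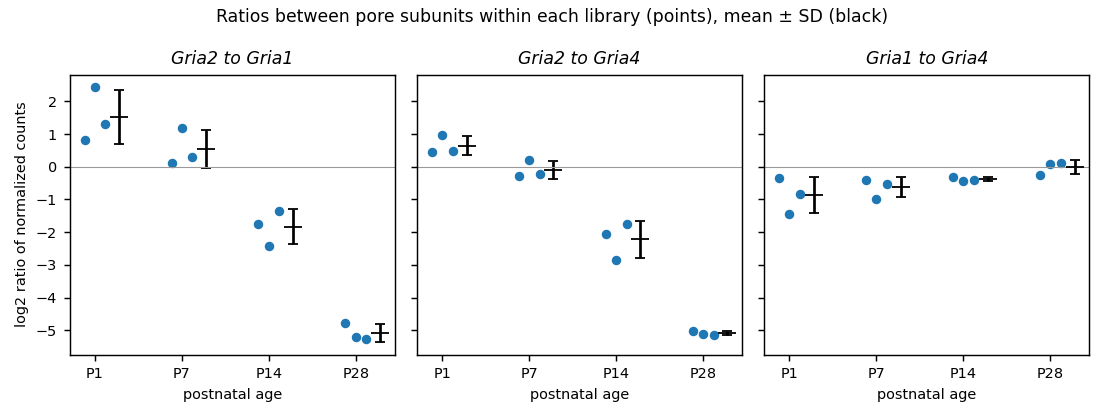
Log2 ratio of normalized counts between pairs of pore subunits within each library (blue points) with mean ± SD of the 3 libraries in black, by postnatal age. Gria2 to Gria1 and Gria2 to Gria4 drop at each age to about -5.09 and -5.10 at P28, while Gria1 to Gria4 stays between -1.45 and 0.13.

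Among the TARPs, the type II members rose and the type I members did not share a course. Cacng5, a type II TARP known in Bergmann glia, had 606, 369 and 1222 normalized counts at P1, 1127, 514 and 1280 at P7, 5657, 8860 and 5073 by P14 and 15666, 18038 and 14251 by P28. P1 and P7 overlapped, and each later age lay above all earlier ones. The rise was 2.81 ± 0.39 (SE, log2) from P7 to P14 (limma, adjusted p = 0.000138) and 1.33 ± 0.39 from P14 to P28 (adjusted p = 0.0348), after a difference of 0.48 from P1 to P7 (adjusted p = 0.610). The second rise was not called with library totals as scaling (adjusted p = 0.0699), without the filter on low values (0.0506) or without any one of 4 libraries (up to 0.129, without P14 replicate 3). The net rise was 24.5-fold (4.61, adjusted p = 8.29e-07).

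Cacng7, the other type II TARP, was at 218, 231 and 278 normalized counts at P1, 204, 137 and 197 at P7, 508, 565 and 263 by P14 and 744, 1463 and 1765 by P28. P28 lay above all other ages, and 1 P14 library (replicate 3) was within the P1 range. Cacng7 rose by 1.25 ± 0.35 (SE, log2) from P7 to P14 (limma, adjusted p = 0.0212) then 1.55 ± 0.35 between P14 and P28 (adjusted p = 0.0110), 5.14-fold in all (2.36, adjusted p = 0.00016). The former call was lost without P7 replicate 2, P14 replicate 1 or P14 replicate 2 (adjusted p up to 0.0987), and the latter without P14 replicate 3 (0.0526) or with the 2 time points fitted alone (0.078).

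The pore subunits, Cacng2 and the type II TARPs were also set against the summed astrocyte markers of the same library, as counts per 100 marker counts (mean ± SD, n = 3). Gria1 stood at 1.32 ± 0.74 at P1, 5.44 ± 0.23 at P7, 7.19 ± 0.48 by P14 and 10.1 ± 0.90 by P28. Gria4 went from 2.24 ± 1.07 to 8.61 ± 2.20 at P7, then stood at 9.41 ± 0.99 and 10.3 ± 1.62, and its libraries of P7, P14 and P28 overlapped. Relative to this sum, Gria4 was lower at P1 than at the later ages, and the sum itself was lowest at P7. Slc1a3 and Slc1a2 were its most abundant markers. Of the 10 markers, 5 were called lower and 2 higher from P1 to P7 (limma). From P1 to P28, 9 were called higher, while Aldh1l1, the gene behind the sort, was called lower. Gria2 had 3.38 ± 1.22, 8.41 ± 3.88, 2.10 ± 0.76 and 0.301 ± 0.060 at the 4 ages, highest at P7. Cacng5 had 1.24 ± 0.91, 2.26 ± 0.41, 3.92 ± 0.80 and 4.33 ± 0.72, and Cacng7 had 0.395 ± 0.107, 0.439 ± 0.054, 0.266 ± 0.075 and 0.350 ± 0.119, where the P28 libraries overlapped with those of each other age. These ratios were not tested.

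Cacng2, the type I TARP also called stargazin and a main TARP of cerebellar granule neurons, had 62.1, 42.9 and 167 normalized counts at P1, 714, 577 and 816 at P7, 166, 380 and 372 by P14 and 93.5, 301 and 249 by P28. The P7 libraries lay above all others. The rise of 3.17 ± 0.53 (SE, log2) from P1 to P7, 9.0-fold, was the largest of any member in that step (limma, adjusted p = 0.00207), and it was called in every alternative. The differences of -1.28 from P7 to P14 (adjusted p = 0.108) and -0.58 from P14 to P28 (adjusted p = 0.497) were not called. That from P7 to P14 was called with library totals (0.0471) and with only these ages fitted (0.0129). P28 was below P7 by 1.86 (adjusted p = 0.0127), a call lost without P28 replicate 1 (0.0515). The difference of 1.31 from P1 to P28 was not called (adjusted p = 0.0682). It was called with DESeq2 (0.0455), with replicate number as a block (0.0402) and without P1 replicate 3 (0.0168) or P28 replicate 1 (0.0143). P14 was above P1 by 1.89 (adjusted p = 0.0202), which was lost without any one of 4 libraries (up to 0.0860, without P1 replicate 2). In the same step from P1 to P7, 8 of 9 granule neuron markers and 2 of 7 interneuron markers were called higher, and their part in the rise of Cacng2 was not tested. Exons of another gene, A730060N03Rik, cover 5.86% of the exon length of Cacng2, and whether counting used strand is not stated.

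Cacng4, a type I TARP, had 211 ± 43.1 normalized counts per kb of exon (SD, n = 3) at P1, the highest mean of the TARPs, although Cacng5 was above it in P1 replicate 3. It had 691, 642 and 930 normalized counts at P1, 502, 216 and 424 at P7, 343, 324 and 349 by P14 and 240, 548 and 483 by P28. P1 lay above all later libraries, which overlapped with one another. P14 was below P1 by 1.14 on the log2 scale (limma, adjusted p = 0.0321), a call that was lost without any one of 5 libraries (up to 0.128, without P1 replicate 3). P7 (-1.05, adjusted p = 0.0882) and P28 (-0.90, adjusted p = 0.0589) were not called against P1. With library totals P28 was called lower than P1 (0.00633), as without P7 replicate 2 (0.0361), P28 replicate 2 (0.0302) or P28 replicate 3 (0.0496). P7 was called lower than P1 with only these ages fitted (0.0379) or without P28 replicate 1 (0.0397). Markers of oligodendrocyte precursors, which use Cacng4, had their highest median sum at P1 as well, and their part was not tested. Cacng8, the type I TARP known from hippocampus, was the lowest member, with 27.1, 36.4 and 40.9 normalized counts at P1, 14.3, 19.6 and 17.1 at P7, 68.8, 39.1 and 52.1 by P14 and 95, 18.9 and 2.70 by P28. These rest on 2 to 65 reads per library, and no comparison of Cacng8 was called in the main fit (limma adjusted p from 0.275 to 0.943). Single alternatives called it from P7 to P14 (0.0467, only these ages fitted) and from P14 to P28 (0.0318, without P28 replicate 1). The P28 libraries, with 65, 16 and 2 reads, lay further apart than those of any other age.

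**Figure D4:**
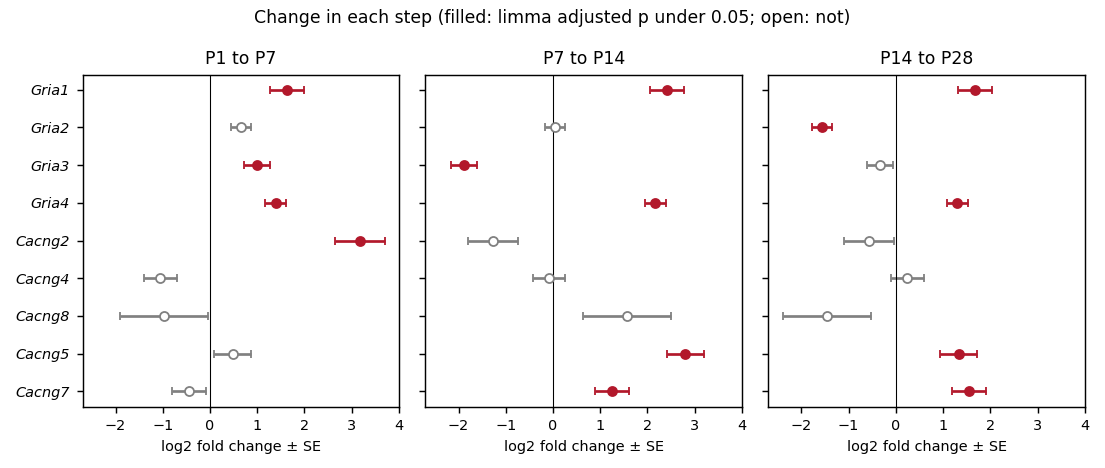
Log2 fold change ± SE of each member in the steps P1 to P7, P7 to P14 and P14 to P28, from the limma fit; filled red points have an adjusted p under 0.05 and open grey points do not. Gria1 and Gria4 are filled and above 0 in all 3 panels, Gria2 is filled only in the last, at -1.57, and Cacng8 has the widest error bars.

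By share of the summed level per kb, the TARPs changed from a mixture to a single leading member. At P1, Cacng4 held 40.8% ± 5.28 (SD, n = 3), Cacng5 33.9% ± 9.31 and Cacng7 19.6% ± 4.35. At P7, Cacng5 held 43.4% ± 5.96 and Cacng2 23.4% ± 4.76. Cacng5 then held 82.3% ± 2.44 by P14 and 85.4% ± 5.03 by P28, when Cacng2, Cacng4 and Cacng8 together made up under 5% in every library. With coding length in place of exon length, Cacng5 held 40.6%, 45.5%, 86.1% and 89.4% at the 4 ages, which put it before Cacng4 (38.8%) at P1.

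Counted over all 9 members, the step from P1 to P7 had 4 that were called higher (Gria1, Gria3, Gria4 and Cacng2) and none lower, where 3.47% of all genes tested were called higher and 4.24% lower by limma at an adjusted p under 0.05. With edgeR and DESeq2 it was also 4 higher and 0 lower, and Cacng4 alone was lower at an unadjusted p under 0.05. From P7 to P14, 4 were higher (Gria1, Gria4, Cacng5 and Cacng7) and 1 lower (Gria3), against 10.8% and 10.0% of all genes. From P14 to P28 the same 4 genes were higher and Gria2 lower, against 5.68% and 8.76%. From P1 to P28 those 4 were higher and 2 lower (Gria2 and Gria3), against 14.6% and 20.0%. The median log2 fold change of the members was 0.65, 1.25 and 0.24 in the 3 steps, beside 0.04, -0.09 and -0.12 for all genes. Called in either direction were 7 members between P1 and P14 (background 20.4%) and 7 between P7 and P28 (39.2%). The former number was 4 without P1 replicate 1, P1 replicate 2, P14 replicate 1 or P14 replicate 2. Steps that share a time point share its libraries.

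Ordered by mean level, the ages ran P1, P7, P14, P28 for Gria1 and Gria4, and each neighbouring pair differed. For Cacng5 the order was the same, with P1 and P7 not differing beyond their spread. For Cacng7 it was P7, P1, P14, P28, and of the neighbours only P14 and P28 differed. For Gria2 it was P28, P1, P7, P14, of which only P28 and P1 differed, and for Gria3 P28, P14, P1, P7, of which P14 and P1 (adjusted p = 0.0335, lost without any one of 5 libraries, up to 0.154 without P1 replicate 3) and P1 and P7 differed. For Cacng2 (P1, P28, P14, P7), Cacng4 (P14, P7, P28, P1) and Cacng8 (P7, P1, P28, P14) no neighbours differed.

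The 9 genes lie on 6 chromosomes (GRCm38, GENCODE M21). Gria1 is at chr11:57011387-57330244 (plus strand), Gria2 at chr3:80681450-80802835 (minus), Gria3 at chrX:41400854-41678601 (plus) and Gria4 at chr9:4417896-4796234 (minus). Of the TARPs, Cacng2 is at chr15:77991748-78120028 (minus). Cacng4 (chr11:107732357-107794557, minus) and Cacng5 (chr11:107874605-107915055, minus) lie in a row on one strand, and so do Cacng7 (chr7:3332955-3368221, plus) and Cacng8 (chr7:3390683-3415648, plus). Within these neighbouring pairs, Cacng5 and Cacng7 rose by 4.61 and 2.36 from P1 to P28, while Cacng4 (-0.90) and Cacng8 (-0.88) were not called.

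Promoter windows, from 250 bases before to 50 after the annotated start, are shown for the 2 rising members Gria4 and Cacng5 and for Gria2, which fell. The sequences are those of RefSeq on GRCm38.p6, where 6 of the 9 members had an entry, and Gria1, Gria3 and Cacng4 had none. Capitals mark exact matches to the GC box GGGCGG, the CCAAT box CCAAT, the TATA box TATAAA, the NFI half-site TTGGCA or CAGCACC, the left part of the RE1 element, on either strand.
Gria4, chr9:4796185-4796484, minus strand: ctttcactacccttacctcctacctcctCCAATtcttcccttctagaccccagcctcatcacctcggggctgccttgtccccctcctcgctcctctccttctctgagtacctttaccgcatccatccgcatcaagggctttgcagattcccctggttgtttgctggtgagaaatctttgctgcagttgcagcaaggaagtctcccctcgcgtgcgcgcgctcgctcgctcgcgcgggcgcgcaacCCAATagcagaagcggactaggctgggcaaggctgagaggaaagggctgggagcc
Cacng5, chr11:107915006-107915305, minus strand: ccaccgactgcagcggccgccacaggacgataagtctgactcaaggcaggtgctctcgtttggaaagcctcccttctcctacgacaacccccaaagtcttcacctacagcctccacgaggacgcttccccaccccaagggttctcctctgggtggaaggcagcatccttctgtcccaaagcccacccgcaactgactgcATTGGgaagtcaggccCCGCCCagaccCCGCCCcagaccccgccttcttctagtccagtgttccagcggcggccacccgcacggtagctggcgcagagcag
Gria2, chr3:80802786-80803085, minus strand: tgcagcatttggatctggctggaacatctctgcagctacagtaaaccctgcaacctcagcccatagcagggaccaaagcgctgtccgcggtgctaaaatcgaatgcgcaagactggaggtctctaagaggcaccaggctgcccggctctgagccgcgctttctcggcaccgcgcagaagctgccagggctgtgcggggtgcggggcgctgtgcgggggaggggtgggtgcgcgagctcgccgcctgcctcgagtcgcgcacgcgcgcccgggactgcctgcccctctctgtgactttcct
The Gria4 window held 2 CCAAT matches, that of Cacng5 held 2 GC boxes and 1 CCAAT match, and that of Gria2 held no exact match to the 5 motifs. Matches with a differing base were not sought, so an element that departs from these letters is not marked. Of 32851 promoter windows of the same length, 37.4% held a CCAAT match, 35.7% a GC box, 13.6% TATAAA, 14.1% TTGGCA and 7.14% CAGCACC, so these matches are common. A second start of Cacng5, with its window at chr11:107911313-107911612, held 1 match to TTGGCA.

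Other genes that shape AMPA receptors followed several courses. Of 9 other auxiliary subunits, 2 were called lower from P1 to P7, 1 was called higher from P7 to P14, and in the last step 1 was called higher and 1 lower. Shisa9, also called CKAMP44, an auxiliary subunit that slows recovery from desensitization, was the most abundant, at 2360 ± 559 normalized counts (SD of 3 libraries) at P1, 681 ± 208 at P7, 2423 ± 386 by P14 and 7908 ± 423 by P28. It fell by 1.81 on the log2 scale (limma, adjusted p = 0.000273) and then rose by 1.87 (5e-05) and 1.72 (0.000554). Cnih2, a cornichon that promotes receptor export and slows gating, had 425 ± 72.9, 264 ± 62.3 and 286 ± 56.6 at the first 3 ages and 27.3 ± 16 at P28 (-3.56 from P14, adjusted p = 0.000554). Shisa6 differed by -0.89 in the first step (adjusted p = 0.04999), a call lost in 14 of 22 alternatives (up to 0.203). Over the whole period, 3 auxiliary subunits were higher and 4 lower, among them Prrt1 (3.89, adjusted p = 0.000826), Gsg1l (-5.02, 0.00353), Cnih3 (-4.40, 0.0102), Cnih2 (-4.14, 1.66e-05) and Shisa7 (-1.70, 0.0212). The call of Cnih3 was lost with edgeR (adjusted p = 0.149) and in 2 other alternatives, and 2 of the 3 P28 libraries had no read of it, while that of Shisa7 was lost in 3 alternatives (up to 0.0831). The P28 libraries also lay far apart for Gsg1l (0 to 82.6 normalized counts) and Prrt1 (93.5 to 663).

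Of 16 tested genes for assembly and anchoring, 3 were called higher from P1 to P7. In the next step 8 were higher and 1 lower, and in the last one 1 was higher and 3 were lower. Frrs1l, a protein of the endoplasmic reticulum needed for receptor assembly, was called higher in all 3 steps. It went from 183 ± 28.2 normalized counts (SD, n = 3) at P1 to 450 ± 119, 3142 ± 634 and 8620 ± 958, a net log2 rise of 5.55 (limma, adjusted p = 5.75e-10), beside 5.72 for Gria1 and 4.86 for Gria4. Also higher in the first step were Dlg2, a scaffold of the postsynaptic density (1.77, adjusted p = 0.00783), and Porcn (1.07, 0.0165). From P7 to P14 the rises included Nptx1, a pentraxin that clusters AMPA receptors (2.95, 0.00172), Nsf, which binds Gria2 (1.36, 0.000238), Abhd12 (1.27, 0.00332) and Dlg1 (0.79, 0.0158). Grip1, a scaffold that binds the tail of Gria2 and Gria3, fell by 3.15 in that step (0.0181). From P14 to P28, Dlg2 (-1.53, 0.0140), Gripap1 (-1.21, 0.0158) and Cpt1c (-0.73, 0.0323) were lower. Without any one of 4 libraries the first-step call of Porcn was lost (up to 0.101), and without P7 replicate 2 that of Dlg2 (0.0504). Dlg1 was lost from P7 to P14 in 4 alternatives and Grip1 in 2, and in the last step Dlg2 was lost without P14 replicate 3 (0.0689), Gripap1 in 2 alternatives and Cpt1c in 6. Grip2, the relative of Grip1, had 19.7 to 28 normalized counts at P1 and no read in any P28 library, which allows up to 3 reads in each.

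The editing enzyme Adarb1 rose by 1.42 (log2) from P1 to P28 (limma, adjusted p = 0.00181), from 181 ± 47.1 normalized counts (SD, n = 3) to 482 ± 93.4. Its difference from P1 to P7, 1.01 ± 0.29 (SE, adjusted p = 0.0483), was called, but not in 12 of 22 alternatives (up to 0.213, without P1 replicate 1). Adar did not pass in any of the 4 comparisons (adjusted p from 0.965 to 0.993), and Adarb2, a relative without known editing activity, fell by 2.56 from P7 to P14 (0.00106). Of the Cacng genes outside the members, Cacng3, a type I TARP, fell by 3.48 from P7 to P14 (0.0307), from 33.1 ± 21.8 normalized counts (lost in 6 alternatives, up to 0.126 without P7 replicate 3), Cacng1, a muscle calcium channel subunit, was too low to test and Cacng6 had no read in the 12 libraries.

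**Figure D5:**
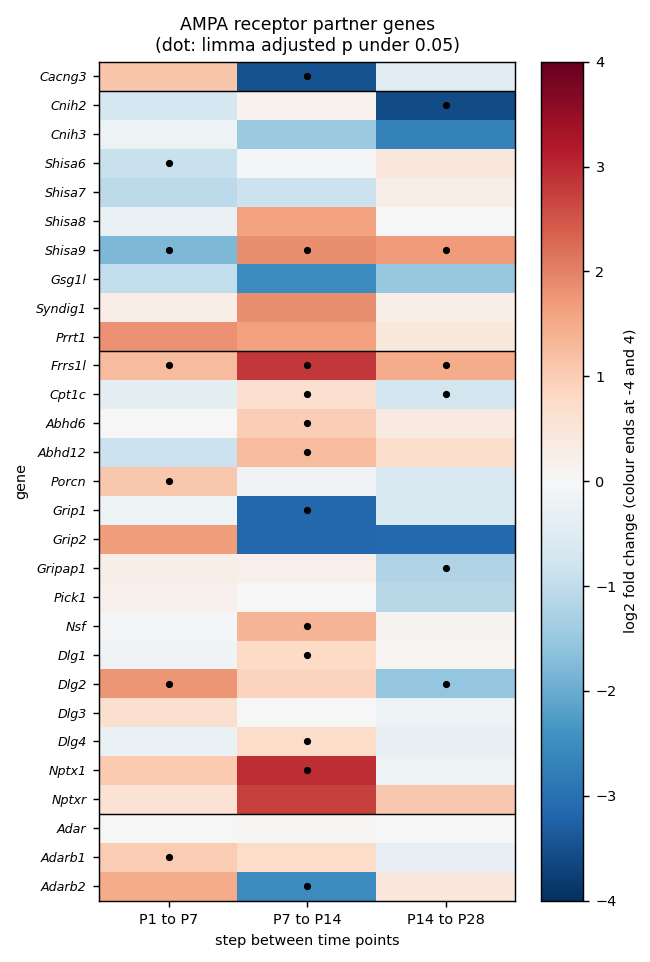
Log2 fold change (colour, from -4 to 4) of Cacng3, other AMPA receptor auxiliary subunits, assembly and anchoring genes and editing enzymes in the 3 steps between ages; a dot marks an adjusted p under 0.05 in limma and black lines part the lists. Frrs1l and Shisa9 are the rows with a dot in every step.

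The genes whose pattern was most like that of each member were sought among 10212 genes with a mean of at least 100 normalized counts, by Pearson's r of the log2 values over the 12 libraries. These values describe 12 libraries that share their ages, so genes that change strongly with age score high together. Nearest to Gria1 were Gjc3 (r = 0.993), Gria4 (0.993) and Gabra4 (0.987), and nearest to Gria4 were Gria1, Gjc3 (0.989) and Ctxn3 (0.989). Cacng5 was nearest to Fzd1 (0.990), to an entry whose symbol had become the date 8-Sep (0.985) and to Lgi4 (0.981), and Cacng7 to Nrcam (0.966), Igdcc4 (0.960) and Mocs2 (0.959). For Gria2 they were Rasgef1b (0.958), Jarid2 (0.948) and the date entry 3-Sep (0.933), and Gria3 had Hist1h2bf (0.975) and Trp53i11 (0.974) among its nearest. Cacng2 was nearest to Scrt1 (0.945), Mat2b (0.939) and Cnot6l (0.938), and Cacng4 to AI854517 (0.944), Srgap3 (0.922) and Gdpd2 (0.869). For Cacng8, which had few reads, they were Flad1 (0.956), Abca8b (0.947) and Akap8l (0.923).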

How the data were processed

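RNA of GFP-positive cells sorted from Aldh1l1-GFP cerebellum was sequenced at P1, P7, P14 and P28, with 3 libraries per age. Libraries were made with the Trio RNA-Seq kit, and no strand setting for counting is given in the sources used here. The authors aligned reads to mm10 (the same assembly as GRCm38) with STAR (2.5.0a, per the submitters' processing notes). They counted them per gene on the UCSC annotation and scaled the result with DESeq2 (1.30.1 in those notes, while the paper's methods name an earlier version). The deposited values are thus a signal in normalized counts, with a single size factor for each library. All 12 column names carry P28, so the ages rest on the labels that tie each column to a sample. 0 columns were left over. Dividing by each library's step gave whole reads for 100% of the values (tolerance 0.01), from 6399499 to 14733985 per library. Intervals from 3 reads for a count of 0 cover counting error only.

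Counts had been considered as the deposited unit, but as the values are normalized, the main test was limma (3.58.1, in R 4.3.3) with a variance trend, on log2 of the value after adding 1, in a single fit of the 12 libraries. It took the 15464 genes that reached a value of 10 in 3 or more libraries. With this pseudocount, changes of weakly expressed genes come out too small. Genes were called at a Benjamini-Hochberg adjusted p under 0.05 over all genes tested. A p under 0.05 with a change over 0.75, as in the study, was an alternative, read here as an unadjusted p and a log2 change, which the study does not state. Ratios were tested by exact permutation of F over the 4 ages. edgeR (4.0.16) on the recovered reads called 1090, 3046 and 1977 genes in the 3 steps, and 4920 from P1 to P28. DESeq2 (1.42.0) on the same reads, TMM scaling, library totals, pseudocounts of 0.1 and 10, other filters, the replicate block and leaving out each library were further alternatives, and coding length was added after seeing the data. The tests were checked on simulated counts. All pairs of libraries of one age differed by more than sampling noise. The labels call the 3 libraries replicates without naming animals, so p-values measure the spread between libraries.

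Lengths and positions came from GENCODE M21 by gene symbol (9 of 9 members matched). The members and gene lists were chosen with earlier results of these data known. Named were the 9 members, and of the other lists each called gene, or in lists with over 8 tested genes the 4 most abundant and the 4 with the largest called change, and for each member the 3 genes with the highest r, except that 1 gene for Gria3 is not reported here. Cell types are given by the sums of their marker lists.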

Additional observations from a re-analysis of the deposited data

How the results depend on the processing

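Of 20 calls of a member in the 4 comparisons from P1 to P7, P7 to P14, P14 to P28 and P1 to P28, 5 were lost in some alternative and 0 changed sign. Over the alternatives, with the rule on unadjusted p included, calls of members were lost 18 times and gained 20 times. The gains were in Gria2, Cacng2, Cacng4 and Cacng8. With only the 2 ages compared fitted, Gria2 was called from P1 to P7 (limma adjusted p = 0.0318). In that setting Cacng2 (0.0129) and Cacng8 (0.0467) were called from P7 to P14. With each library left out, the number of members called ranged from 2 to 5 from P1 to P7 (2 without P7 replicate 3), from 4 to 5 from P7 to P14, from 3 to 5 from P14 to P28 (3 without P14 replicate 3) and from 6 to 7 from P1 to P28. It ranged from 4 to 7 from P1 to P14 and from 6 to 7 from P7 to P28, where 5 of 14 calls were lost in some alternative and 0 changed sign. Of 42 calls of the other AMPA receptor genes, 18 were lost in some alternative and 0 changed sign, and of 20 calls of kainate and NMDA receptor genes 10 were lost and 0 changed sign. The difference in the log2 ratio of Gria1 to Gria4 between P28 and P1 was 0.57 to 1.12 then, with adjusted p up to 0.130.

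Signs that turned were all of differences not called: Gria2 from P7 to P14 with library totals (-0.21), without P7 replicate 1 (-0.039) and without P14 replicate 3 (-0.14), Cacng4 in that step without P7 replicate 1 (0.16) and without P7 replicate 3 (0.038), and Cacng8 from P1 to P28 with edgeR (0.19), with DESeq2 (0.15) and without P28 replicate 3 (0.31). With each library left out, the range was -0.14 to 0.23 for the first, -0.45 to 0.16 for the second and -2.04 to 0.31 for Cacng8. The cause was not tested. The share of Gria2 at P28 was 0.769% per length of the longest coding transcript, and with coding length 42.8%, 31.7%, 11.2% and 1.48% at the 4 ages.

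Deviations of same-numbered libraries from their age means correlated only weakly, at -0.029 to 0.139. Yet every P1 library matched best with its own number among the P7 and the P28 libraries, while the other pairs of ages were mixed. Replicate numbers may thus pair libraries weakly. With the number as a block (replicate block), 4, 5, 5 and 7 members were called, the added one being Cacng2 from P1 to P28 (1.31, limma adjusted p = 0.0402).

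Over all genes, 1191 were called from P1 to P7, against 1797 with DESeq2, 2820 with only these ages fitted and 2198 at an unadjusted p under 0.05 with a log2 change over 0.75. From P14 to P28 it was 2232, against 766 and 3725 for the latter pair of settings. Library totals moved the median log2 change of all genes from 0.04 to 0.10, -0.09 to -0.34, -0.12 to -0.35 and, from P1 to P28, -0.24 to -0.66. Of the genes called, the part that was higher went with it from 51.9% to 32.9% (P7 to P14), 39.3% to 19.0% (P14 to P28) and 42.3% to 21.1% (P1 to P28). It was 56.6% and 56.7% in the last 2 of these comparisons with at least 10 in every library, and 51.3% from P14 to P28 with only those ages fitted. The least counted member was Cacng8, with 2 to 65 reads per library.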

Other observations

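The other ionotropic glutamate receptors were measured in the same sorted cells. From P1 to P7, the 7 kainate receptor genes had limma adjusted p-values from 0.139 to 0.905, and 2 had an unadjusted p under 0.05. Grik3, a pore subunit, fell by 2.61 on the log2 scale from P7 to P14 (adjusted p = 0.00165) and by 1.67 from P14 to P28 (0.0366, lost in 8 of 22 alternatives, up to 0.231), from 716 ± 208 normalized counts (SD, n = 3) at P7 to 36.2 ± 11.6 at P28. In the last step Grik4, a high-affinity subunit, rose by 2.76 (0.000583), to 521 ± 208, while Grik2 fell by 1.42 (0.0217) and Neto1, an auxiliary subunit, fell by 4.73 (0.00413). Neto2 was higher at P28 than at P1 by 0.74 (0.0237, lost in 4 alternatives, up to 0.308 with library totals). The last-step calls of Grik2 and Neto1 were lost in 3 alternatives and 1 alternative. The summed level of the 7 genes ranged from 3459 to 5501 in the 12 libraries, with overlap between all ages, against a rise of the summed AMPA pore subunits from between 3625 and 6405 at P1 to between 66953 and 86935 at P28.

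Of 7 NMDA receptor genes, 2 were called higher from P1 to P7, the obligatory subunit Grin1 (1.33, limma adjusted p = 0.0368) and Grin2b (1.60, 0.0107). From P7 to P14, 3 were higher, with Grin2c, the subunit of mature granule neurons, from 17.9 ± 9.87 to 528 ± 173 normalized counts (4.91, 0.000496), Grin2a (2.52, 0.0163) and Grin1 (1.48, 0.00903). Granule neuron markers rose in both steps as well (8 and 7 of 9 called higher), and their part was not tested. From P14 to P28, Grin3a rose by 1.21 (0.0107), to 2401 ± 227. Grin2d fell over the whole period, from 44.4 ± 11.8 normalized counts at P1 to between 0 and 2.36 at P28 (-4.88, adjusted p = 0.00138). The calls of Grin1 were lost in 5 alternatives in the first step and 2 in the second, that of Grin2b in 2, that of Grin2a in 4 and that of Grin3a without P14 replicate 3 (0.0519).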
